A study of Mus musculus with 4 samples.

Results

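Autophagy delivers cytoplasmic material to the lysosome inside a double-membraned vesicle, the autophagosome. The Ulk1 kinase complex and a class III phosphatidylinositol 3-kinase start the process, Atg9 vesicles and lipid transfer proteins build the membrane, and a pair of ubiquitin-like conjugation reactions attaches proteins of the Atg8 family (LC3 and GABARAP) to it. Cargo receptors such as p62 bind ubiquitinated material and Atg8 proteins at once, and the transcription factors TFEB and TFE3 switch on genes of autophagy and the lysosome. In macrophages this machinery removes intracellular bacteria and damaged organelles, and p62 is also a scaffold of inflammatory signalling.

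39 genes of this machinery were followed, picked by symbol from a list of names that was drawn up with earlier results of these data known. No measured value entered the rule. All 39 were among the 14435 genes of the deposited expression table, and 39 of 39 passed the filter on low counts that left 11035 genes in the test. The samples were 4 RNA-seq libraries of RAW264.7, an established mouse macrophage line, and all 4 had been exposed to E. coli lipopolysaccharide (LPS), the ligand of the receptor TLR4, for 12 hours. The control group (n = 2) had received a nonspecific shRNA and the knockdown group (n = 2) an shRNA against METTL3, the methyltransferase that writes N6-methyladenosine on RNA. The title of the second knockdown library names Mettl3, while its treatment field names METTL4, and it was kept in the group its title gives. No cells without LPS were sequenced, so every comparison is knockdown against control under LPS. The labels describe a single cell line and give neither the LPS dose nor the vector of the shRNAs. Whether a group's 2 libraries are independent cultures is not stated, so p-values measure the spread between these libraries alone, which may be technical.

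The libraries held between 16342313 and 17193639 estimated counts. Mettl3 had 514 and 496 estimated counts in the control pair against 194 and 195 in the knockdown pair, and its log2 fold change was -1.42 (SE 0.10). Mettl4 had 439 and 404 against 410 and 432, and was not called. Of 9 macrophage markers 7 fell (77.8%, against 22.3% of all tested genes). Summed over the 9, their level was 13600 and 14000 CPM (counts scaled to library size and composition) in the control pair against 8710 and 8690 CPM in the knockdown pair. Of 13 markers of other cell types 5 were among the genes of the deposited expression table and 8 were not. The 5 summed to between 5.98 and 8.39 CPM, of which S100a8, the 1 that was tested, gave 5.52 to 6.13 CPM. The fibroblast markers Col1a1 and Col1a2 were at 0 in both controls, at 17 and 15 counts in knockdown replicate 1, which has the highest sum, and at 1 and 0 counts in knockdown replicate 2. Dcn had 0 and 1 counts in the control pair against 4 and 5 in the knockdown pair. Zbtb46 went the other way, with 9 and 8 counts against 2 and 2. In such bulk samples fewer cells of a type and less RNA per cell cannot be told apart, and the part of these marker differences in the results below was not tested. A difference caused by Mettl3 cannot be told apart from other differences between the 2 transfected populations.

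Changes below are log2 fold changes of the knockdown over the control group with their standard error (SE), and single-library values are CPM scaled to library size and composition, unless a sentence says TPM. TPM, the share of a gene among all transcripts, accounts for gene length, so levels of different genes are compared in TPM only. A gene was called, and is said to have risen or fallen, when the quasi-likelihood test of edgeR gave it an adjusted p below 0.05 (Benjamini-Hochberg, over all 11035 genes).

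The autophagy genes were called about as often as other genes, with membrane-building factors among the rises and the transcription factors and the main cargo receptor among the falls. 17 of the 39 genes were called (43.6%), against 43.7% of all tested genes. 11 rose (28.2%), where 21.4% of all genes rose, and 6 fell (15.4%), where 22.3% of all genes fell. The control and knockdown libraries did not overlap for 30 of the 39 genes (76.9%), against 73.4% of all tested genes. Of the 39, 21 were higher without overlap in the knockdown libraries, where 37.1% of all tested genes were, and 9 lower, where 36.3% were. The median log2 fold change of the 39 was 0.15 and that of all tested genes 0.01. In a test against a 1.5-fold change, 2 of the 39 rose (Rb1cc1 and Wipi1) and 3 fell (Sqstm1, Tfeb and Optn), where the shares of all genes were 3.76% and 4.87%. Of the 39 genes, 3 were called with a change of at least 1 on the log2 scale (Wipi1, Tfeb and Optn), against 8.94% of all tested genes. Without knockdown replicate 1 the median of the 39 was 0.166 and that of all tested genes 0.012. Without knockdown replicate 2 these medians were 0.113 and 0.004. With library size as the only scaling, and with TPM, 18 of the 39 rose and 5 fell. These scalings moved the median of all genes to 0.11 and 0.16 (TPM with a pseudocount of 0.1), and the median of the 39 genes lay above it by 0.13 with the main scaling, by 0.14 with library size and by 0.14 with TPM. Of all calls, 48.9% were rises with the main scaling, 64.1% with library size and 70.1% with TPM.

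**Figure D1:**
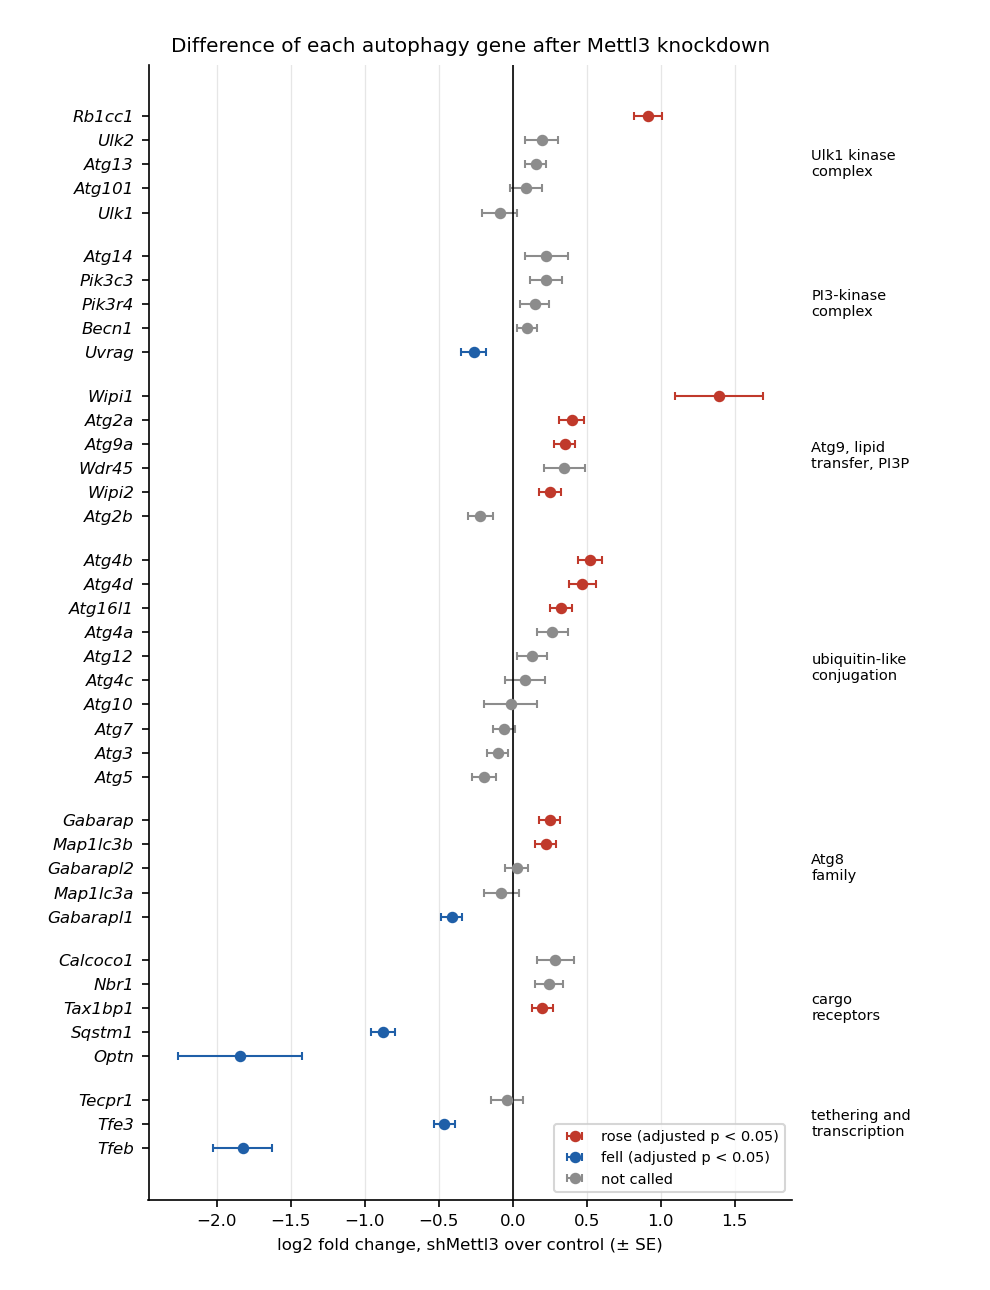
Log2 fold change of each of the 39 autophagy genes, knockdown over control, with its standard error as a bar (x axis), in rows grouped by role, with red for genes that rose, blue for genes that fell and grey for genes not called (2 libraries a group). The values run from -1.84 for Optn to 1.39 for Wipi1, and 11 genes are red and 6 blue.

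The transcription factors fell. TFEB and TFE3 bind the E-box CACGTG in promoters of lysosomal and autophagy genes and are held in the cytoplasm by mTORC1. Tfeb (Entrez gene 21425) measured 7.28 and 9.34 CPM in the control pair against 2.38 and 2.30 CPM in the knockdown pair. Both knockdown libraries lay far below both controls, which themselves differed by 121 against 155 counts. The log2 fold change of Tfeb was -1.83 (SE 0.20, edgeR adjusted p = 3.67e-05), a level 3.54-fold lower. Tfe3 (Entrez gene 209446), its relative, measured 204 and 194 CPM in the controls against 143 and 146 CPM. These groups did not overlap either, and the log2 fold change was -0.46 (SE 0.07, edgeR adjusted p = 3.45e-04). Both genes were called in the same direction in each of the 13 alternative fits.

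The other genes of the same transcription factor family, taken from a list of relatives and regulators, were lower as well. Tfec, a family member expressed in macrophages, measured 40.5 and 49.1 CPM in the controls against 10.1 and 10.8 CPM, a log2 fold change of -2.10 (SE 0.12, edgeR adjusted p = 3.52e-07). Mitf, the founding member, measured 87.5 and 71.1 CPM against 57.3 and 57.1 CPM, a log2 fold change of -0.47 (SE 0.10) that lost its call with TPM (edgeR adjusted p = 0.00324, limma adjusted p = 0.0708). Compared per length, Tfe3 was the most abundant of the 4 in every library, with 106 and 96.0 TPM in the control pair and 80.8 and 81.7 TPM in the knockdown pair. Its share of the family's summed TPM was 60.0% and 57.3% in the control pair and 71.4% and 71.5% in the knockdown pair. The share of Tfec was 20.5% and 25.2% against 8.72% and 8.86%, and that of Tfeb 3.06% and 3.94% against 1.73% and 1.62%. These shares do not depend on how libraries are scaled to each other. Among the 8 genes of the list, 4 fell and 1 rose (50.0% and 12.5%, against 22.3% and 21.4% of all tested genes). The other calls were Ppp3r1 and Ppp3ca, which encode subunits of calcineurin, the phosphatase that releases TFEB to the nucleus (-0.51 and -0.28), and Map4k3, a kinase of amino acid signalling, which rose (0.50). With TPM 2 of the 8 fell and 2 rose, where 13.6% and 31.8% of all tested genes did.

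The E-box was sought on the autophagy genes themselves, because these 2 factors bind it and both fell. RefSeq promoter windows on GRCm38.p6, from 250 bases before to 50 after a gene's start, were matched for 33 of the 39 genes and gave 40 windows. Atg12, Atg16l1, Rb1cc1, Becn1, Pik3c3 and Map1lc3a were not matched. The motif CACGTG, which reads the same on both strands, was present in windows of 4 of these genes. By window that was 4 of 40 (10.0%), against 10.2% of 11323 windows of tested genes and 7.15% of all 32851 windows. The matches are shown with 20 bases on either side, 5′ to 3′ on the gene's strand, with the motif in capitals and the distance counted from its first base.
Atg3, chr16:45158715-45158760, plus strand, 94 bases before the start: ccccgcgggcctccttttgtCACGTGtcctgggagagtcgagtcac
Atg3, chr16:45158738-45158783, plus strand, 71 bases before the start: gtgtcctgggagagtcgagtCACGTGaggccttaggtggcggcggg
Atg5, chr10:44268305-44268350, plus strand, 14 bases before the start: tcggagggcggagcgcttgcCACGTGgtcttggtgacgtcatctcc
Atg7, chr6:114670944-114670989, plus strand, 132 bases before the start: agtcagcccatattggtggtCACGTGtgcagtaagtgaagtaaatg
Atg14, chr14:47568410-47568455, minus strand, 1 base before the start: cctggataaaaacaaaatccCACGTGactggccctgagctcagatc
The second match in Atg3 is also the extended form TCACGTGA, which 1 of the 40 windows held, against 1.93% of windows of tested genes. All 4 genes with a match, Atg3, Atg5, Atg7 and Atg14, were among the genes not called, with log2 fold changes of -0.10, -0.20, -0.06 and 0.23. The 29 genes whose windows lacked these letters held 9 rises, 6 falls and 14 genes not called. A match is a stretch of letters and no measured binding site, and its absence says only that the letters are not in this window.

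In the Ulk1 kinase complex the scaffold rose. Rb1cc1 (Entrez gene 12421) encodes FIP200, the large scaffold on which the kinase assembles. It measured 17.5 and 18.4 CPM in the controls against 34.3 and 33.5 CPM, with 291 and 306 counts against 577 and 583. The replicates lay within 1 CPM of each other in both groups, and the level was 1.89-fold higher in the knockdown group (log2 fold change 0.92, SE 0.09, edgeR adjusted p = 1.99e-05). It was called in each of the 13 alternative fits. Of the 5 genes of this complex it was the 1 that rose, where 21.4% of all tested genes rose. The other 4 were not called, so the complex as a whole rose no more often than other genes. Ulk1 (Entrez gene 22241), the kinase, measured 13.9 and 13.6 CPM against 12.0 and 13.8 CPM, overlapping, with a log2 fold change of -0.09 (SE 0.12) whose sign turned with library size, FPKM and TPM. Its paralog Ulk2 measured 14.7 and 14.3 CPM against 15.8 and 17.5 CPM (0.20, SE 0.11, edgeR adjusted p = 0.176). In TPM the 2 kinases were about equal in the controls, where Ulk1 made up 48.8% and 51.6% of their sum, and it made up 45.1% and 45.7% in the knockdown libraries. The regulatory subunits Atg13 (0.16, SE 0.07) and Atg101 (0.09, SE 0.11) were not called, though Atg13 was called with library size, FPKM and TPM and without control replicate 1. Compared per length, the subunits are unequal: Atg13 stood at 49.4 TPM in the control mean and Atg101 at 26.0, while Rb1cc1 stood at 4.17, Ulk1 at 4.09 and Ulk2 at 4.07.

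**Figure D2:**
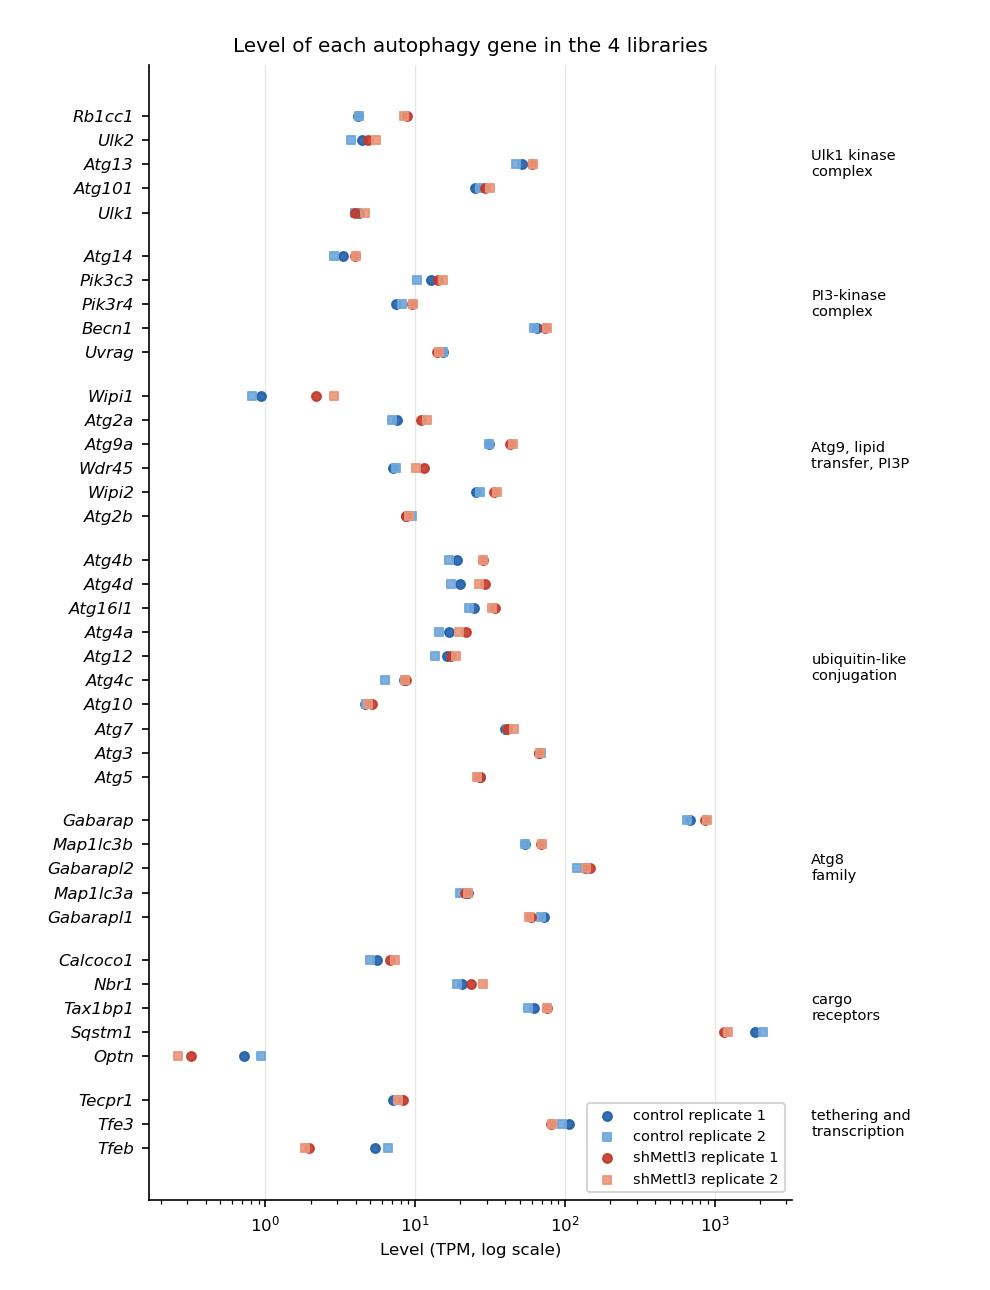
Level of each autophagy gene in TPM (x axis, log scale) in the 4 libraries, blue for control and red for knockdown, circles for replicate 1 and squares for replicate 2, in rows grouped by role. Levels run from below 1 TPM for Optn to 2085 TPM for Sqstm1, and the red and blue points of Rb1cc1, Wipi1, Sqstm1, Optn and Tfeb stand furthest apart.

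Of the 5 genes of the phosphatidylinositol 3-kinase complex 1 was called, as a fall. Of all tested genes 43.7% were called and 22.3% fell. The core subunits of the complex are the lipid kinase Pik3c3 (VPS34), its regulatory subunit Pik3r4 (VPS15) and the scaffold Becn1 (Beclin 1). They are joined by Atg14 at the forming autophagosome or by Uvrag at endosomes. Becn1 (Entrez gene 56208) measured 79.6 and 78.0 CPM in the controls against 83.5 and 85.2 CPM. The groups did not overlap, but the difference of 0.10 (SE 0.07) was not called (edgeR adjusted p = 0.267). Fractional counts of Becn1 show that some of its reads were shared out between genes. Its exons overlap those of Cntd1 on the opposite strand in GENCODE M21, and Cntd1 had at most 3.34 counts in a library. Pik3c3 (0.22, SE 0.11), Pik3r4 (0.15, SE 0.10) and Atg14 (0.23, SE 0.15) were each higher in both knockdown libraries than in both controls and not called. Pik3c3 and Becn1 were called as rises with library size and with TPM, and Pik3c3 also without control replicate 1. Uvrag fell, from 32.9 and 34.1 CPM to 27.4 and 28.4 CPM (-0.26, SE 0.09, edgeR adjusted p = 0.0276). Its call was lost in DESeq2, with library size, FPKM and TPM and without either knockdown library, so it is the least stable of the falls.

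Among the genes that supply and extend the membrane, 4 of 6 rose (66.7%, against 21.4% of all tested genes). The other 2, Wdr45 and Atg2b, were not called. The median of this group was 0.35. Atg9a, the lipid scramblase of the vesicles that seed the membrane, measured 74.6 and 77.6 CPM in the controls against 94.8 and 99.4 CPM (0.35, SE 0.07, edgeR adjusted p = 0.00206). Atg2a, a rod-shaped lipid transfer protein, measured 25.8 and 25.8 CPM against 33.3 and 34.7 CPM (0.40, SE 0.09, edgeR adjusted p = 0.00327). Its paralog Atg2b measured 35.6 and 38.0 CPM against 30.5 and 32.7 CPM (-0.22, SE 0.09, edgeR adjusted p = 0.0587), a fall that was called with no filter on low counts and without control replicate 1. The makeup of the pair moved in both knockdown libraries. Atg2a made up 46.5% and 42.3% of their summed TPM in the control pair and 55.8% and 56.9% in the knockdown pair, so the more abundant paralog was Atg2b in the controls and Atg2a after knockdown. An exact permutation test of 2 libraries against 2 cannot give a two-sided p below 0.333, so such shares are given as values. Exons of Atg2b overlap those of Gskip on the opposite strand by up to 383 bases, and these libraries do not mark strand. Gskip stood at 22.4 CPM in the control mean and 22.4 CPM in the knockdown mean, and its part in these shares was not tested.

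The WIPI proteins bind phosphatidylinositol 3-phosphate on the growing membrane and recruit the conjugation machinery and Atg2. Wipi1 (Entrez gene 52639) had the largest rise of the 39 genes, from 1.02 and 0.90 CPM to 2.20 and 2.87 CPM, a log2 fold change of 1.39 (SE 0.30, edgeR adjusted p = 0.00308). It is a rare transcript, with 17 and 15 counts in the control pair and 37 and 50 in the knockdown pair, so counting error is a large part of its SE. Among the WIPI genes of the 39, Wipi2 was the most abundant, at 26.2 TPM in the control mean against 0.88 TPM for Wipi1. Wdr45b, a WIPI gene outside the 39, measured 69.9 and 62.4 CPM against 65.7 and 68.05 CPM, and its TPM was not compared. Wipi2 measured 62.9 and 69.2 CPM against 76.8 and 80.5 CPM (0.25, SE 0.08, edgeR adjusted p = 0.0202). The call on Wipi2 was lost in DESeq2, without control replicate 1 and without either knockdown library. Wdr45 (WIPI4) measured 7.46 and 8.01 CPM against 10.4 and 9.31 CPM (0.35, SE 0.14, edgeR adjusted p = 0.0606), and was called with library size, FPKM and TPM.

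Of 10 genes of the ubiquitin-like conjugation systems 3 rose (30.0%, against 21.4% of all tested genes). These were the proteases Atg4b and Atg4d and the scaffold Atg16l1, and the other 7 were not called. Atg4 proteases trim Atg8 proteins before conjugation and cut them from the membrane again. Atg4b (Entrez gene 66615), the most active of them on LC3, measured 34.9 and 31.6 CPM in the controls against 47.4 and 48.2 CPM. Both knockdown libraries were higher by more than the gap between the controls (0.52, SE 0.08, edgeR adjusted p = 4.52e-04). Atg4d (Entrez gene 235040) measured 33.5 and 29.6 CPM against 45.3 and 42.1 CPM (0.47, SE 0.09, edgeR adjusted p = 0.00155). Its counts were not all whole, nor were those of Kri1, whose exons overlap its own on the opposite strand by up to 792 bases. Kri1 had more reads, at 83.4 CPM in the control mean and 96.0 CPM in the knockdown mean, and rose by less (0.20, SE 0.07). The part of reads shared between both genes in the rise of Atg4d was not tested. Atg4a measured 22.3 and 19.9 CPM against 26.9 and 24.0 CPM and was not called (0.27, SE 0.11, edgeR adjusted p = 0.0594), though it was with library size, FPKM and TPM and without control replicate 1. Atg4c overlapped between groups (0.08, SE 0.13). The 4 proteases summed to 64.0 and 54.6 TPM in the control pair and 87.8 and 83.1 TPM in the knockdown pair. Part of this difference is shared, since with TPM the median log2 fold change of all tested genes was 0.155 (pseudocount 0.1).

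Atg16l1, which places the conjugation enzyme on the membrane, was the third rise, from 47.2 and 44.7 CPM to 58.8 and 56.5 CPM (0.33, SE 0.08, edgeR adjusted p = 0.00465). It lost its call without knockdown replicate 1 (edgeR adjusted p = 0.0591). The enzymes and modifiers that it works with stayed within narrower bounds. Atg5 (Entrez gene 11793), the partner of Atg12, measured 38.0 and 38.4 CPM against 34.0 and 32.8 CPM. Those groups did not overlap, and the difference of -0.20 (SE 0.08) missed the threshold (edgeR adjusted p = 0.0691). Atg7 (Entrez gene 74244), the E1-like enzyme of both systems, measured 69.9 and 75.4 CPM against 67.6 and 71.9 CPM, overlapping (-0.06, SE 0.08), and its sign turned with library size, FPKM and TPM. The E2-like enzyme Atg3 (-0.10, SE 0.07) and the modifier Atg12 (0.13, SE 0.10) were not called. Atg10, the other E2-like enzyme, was the rarest gene of this group in reads, with 73 to 77 counts in each library (-0.01, SE 0.18), and a small difference was not detectable at these counts. Per length, Atg3 stood highest at 67.9 TPM in the control mean, followed by Atg7 at 40.4 and Atg5 at 26.5, and Atg10 lowest at 4.65.

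The Atg8 family divided. Gabarap (Entrez gene 56486) measured 432 and 426 CPM in the controls against 503 and 516 CPM and rose (0.25, SE 0.07, edgeR adjusted p = 0.0123). Map1lc3b (Entrez gene 67443), which encodes LC3B, the usual marker of autophagosomes, measured 55.3 and 56.8 CPM against 64.8 and 66.0 CPM and rose by a similar amount (0.22, SE 0.07, edgeR adjusted p = 0.0261). Gabarapl1 (Entrez gene 57436) fell, from 76.1 and 75.2 CPM to 58.1 and 55.6 CPM (-0.41, SE 0.07, edgeR adjusted p = 8.09e-04). For these 3 genes the replicates of a group lay closer together than the groups. Gabarapl1 was called in each of the 13 alternative fits, while Gabarap and Map1lc3b both lost their call when either knockdown library was left out, and Map1lc3b also in DESeq2 and without control replicate 1. Gabarapl2 (0.03, SE 0.08) and Map1lc3a (-0.08, SE 0.12) overlapped between groups, and their signs turned in some alternative fits.

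Compared per length, Gabarap was the dominant Atg8 transcript of these cells. It stood at 684 and 654 TPM in the control pair and 854 and 888 TPM in the knockdown pair. Its share of the family's summed TPM was 70.7% and 71.2% in the control pair and 74.2% and 75.5% in the knockdown pair. Map1lc3b took 5.61% and 5.90% against 5.99% and 5.99%, so the LC3B transcript was a minor one beside Gabarap. The share of Gabarapl1 was 7.43% and 7.51% against 5.17% and 4.86%. The shares of Gabarapl2, at 14.0% and 13.2% against 12.8% and 11.7%, and of Map1lc3a, at 2.33% and 2.18% against 1.87% and 1.92%, were lower in both knockdown libraries. Neither gene was called, and Gabarap is most of the sum, so these lower shares do not show a fall of either gene.

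**Figure D3:**
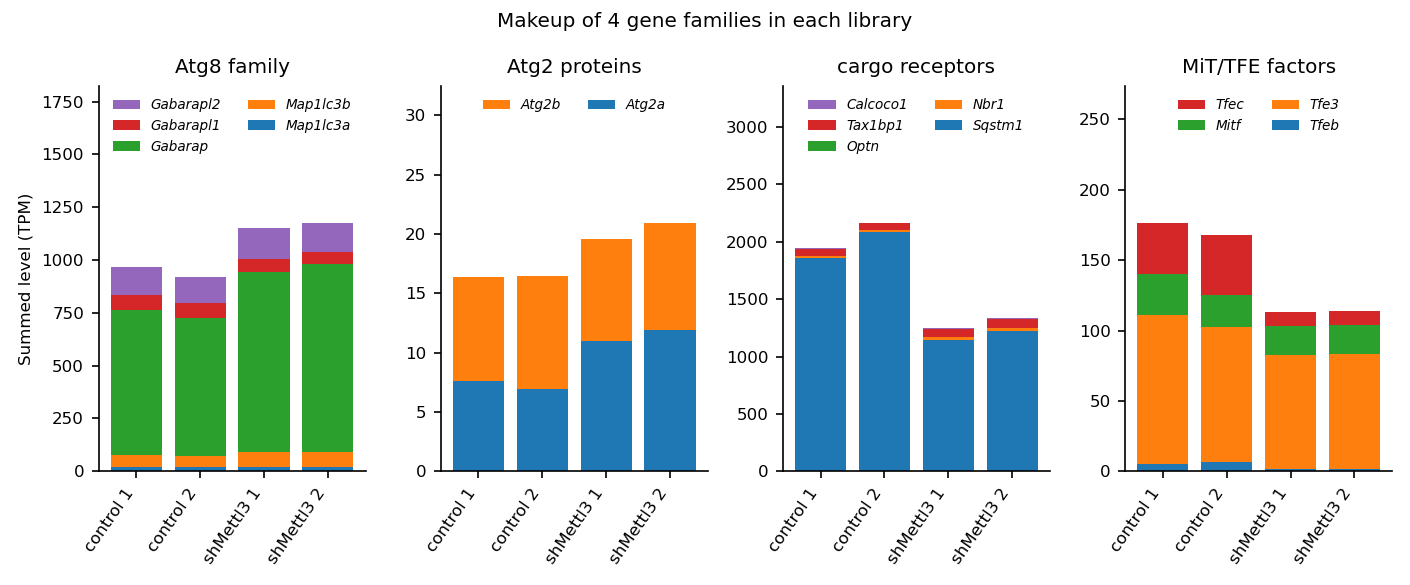
Summed level in TPM (y axis) of the Atg8 family, the Atg2 proteins, the cargo receptors and the MiT/TFE factors in each of the 4 libraries (x axis), with each gene as a coloured part of the bar. The cargo receptor bars fall with Sqstm1, from 1945 and 2166 TPM in the controls to 1251 and 1333 TPM in the knockdown libraries, while the Atg8 bars are higher in the knockdown libraries. With TPM the median log2 fold change of all tested genes was 0.155 (pseudocount 0.1).

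Among the cargo receptors the dominant one fell. Sqstm1 (Entrez gene 18412) encodes p62, which links ubiquitinated cargo to LC3, binds the NRF2 inhibitor KEAP1 and is induced by inflammatory signals. It measured 2251 and 2607 CPM in the control pair against 1282 and 1363 CPM in the knockdown pair, from 37396 and 43266 counts against 21542 and 23710. The controls differed from each other more than the knockdown libraries did, and the groups were well apart. The log2 fold change was -0.88 (SE 0.08, edgeR adjusted p = 1.20e-05), a level 1.84-fold lower, and the call held in each of the 13 alternative fits. Sqstm1 was the most abundant of the 39 genes, above 99.2% of all tested genes by its control mean in TPM. It made up 95.4% and 96.2% of the summed TPM of the 5 receptors in the control pair and 91.5% and 91.6% in the knockdown pair. Its exons overlap those of Mrnip on the opposite strand, which had between 14 and 24 counts in a library.

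The other receptors were smaller in amount and moved either way. Optn, optineurin, a receptor for bacteria and damaged mitochondria, measured 1.08 and 1.26 CPM against 0.36 and 0.29 CPM, a fall close in size to that of Tfeb (-1.84, SE 0.42, edgeR adjusted p = 0.00446). It rests on 18 and 21 counts in the control pair and 6 and 5 in the knockdown pair, and its call was lost in DESeq2 (adjusted p = 0.0612) and without knockdown replicate 2 (edgeR adjusted p = 0.0540). Tax1bp1, which also restrains NF-kB signalling together with A20, rose from 127 and 120 CPM to 141 and 143 CPM (0.20, SE 0.07, edgeR adjusted p = 0.0355). That call was lost in DESeq2, without control replicate 2 and without either knockdown library. Nbr1, which works with p62 on ubiquitinated cargo, measured 59.3 and 56.2 CPM against 61.9 and 74.8 CPM (0.24, SE 0.09, edgeR adjusted p = 0.0566), so its difference lies mostly in knockdown replicate 2. It was called without knockdown replicate 1 (edgeR adjusted p = 0.0171), with library size and with TPM. Calcoco1, a receptor for the endoplasmic reticulum, measured 9.63 and 8.98 CPM against 10.9 and 11.8 CPM (0.29, SE 0.13, edgeR adjusted p = 0.0880), and was called with library size, FPKM and TPM. In TPM, Tax1bp1 made up 3.19% and 2.62% of the receptors in the control pair and 6.02% and 5.68% in the knockdown pair. Tax1bp1 itself went from 59.4 TPM in the control mean to 75.5 TPM in the knockdown mean. TPM moved the median log2 fold change of all tested genes to 0.155 (pseudocount 0.1), and the main fit gave Tax1bp1 0.20. Sqstm1, most of the sum, went from 1970 to 1183 TPM, so the share overstates the gain of Tax1bp1. Tecpr1, which tethers autophagosomes to lysosomes, overlapped between groups (-0.04, SE 0.11).

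Because Sqstm1 carries most receptor reads, its promoter is shown. The 250 bases before its start in RefSeq (GRCm38.p6, chr11:50210821-50211070, minus strand) hold no CACGTG. GC boxes, the letters GGGCGG or their reverse complement CCGCCC, are in capitals. They were sought after the sequence had been seen.
Sqstm1: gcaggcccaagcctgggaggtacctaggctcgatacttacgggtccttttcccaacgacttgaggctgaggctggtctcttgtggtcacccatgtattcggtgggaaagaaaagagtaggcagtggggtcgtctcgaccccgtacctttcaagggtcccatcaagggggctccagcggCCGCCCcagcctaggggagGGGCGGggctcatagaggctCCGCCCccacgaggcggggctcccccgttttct
The stretch has 3 GC boxes and a GC content of 63.2%. At least 3 GC boxes in the same 250 bases occurred in 16.6% of windows of tested genes, and at least 1 in 57.5%.

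Transcript features of the 39 genes were compared with those of all tested genes, as a description. The longest protein-coding transcript in GENCODE M21 was found for 39 of the 39 genes and for 10851 of the tested genes. The letters GGACN, with N any base but G, the commonest core in which METTL3 places its mark, occurred at a median of 4.27 per kilobase in the autophagy transcripts and 3.60 per kilobase in all. The median was 3.32 per kilobase in the 11 autophagy genes that rose and 5.27 in the 6 that fell. Over all tested genes it was 3.40 in those that rose and 3.92 in those that fell. Spearman's rho between this density and the log2 fold change was -0.10 over the 39 genes and -0.12 over the 10851, across genes of the same 4 libraries, which are not independent replicates. GC content had a rho of -0.08 over the 39 and of -0.23 over the 10851, the latter larger in size than that of the motif. Its median was 52.2% in the autophagy genes that rose and 53.4% in those that fell, and 48.0% and 52.8% in all tested genes that rose and fell. For transcript length rho was 0.25 over the 39 and 0.03 over the 10851. Methylation itself was not measured.

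Genes around the 39 were read from 5 lists of related factors, 96 tested genes in all, of which 13 rose and 26 fell (13.5% and 27.1%, against 21.4% and 22.3% of all genes). This balance turned with the scaling, to 24 rises and 18 falls with library size, 22 and 17 with FPKM and 24 and 13 with TPM. The shares of all genes turned too, to 29.6% rises and 16.6% falls with library size, 26.8% and 15.6% with FPKM and 31.8% and 13.6% with TPM. Among 18 other early factors 3 rose and 2 fell (16.7% and 11.1%). Ambra1, which activates the Beclin 1 complex and binds ubiquitin ligases, fell from 1195 and 1244 counts to 379 and 371 counts (-1.74, SE 0.08, edgeR adjusted p = 7.93e-08). Vmp1, a lipid scramblase of the endoplasmic reticulum, fell by 0.34 on the log2 scale, while its partner Tmem41b (0.54), the LC3-binding regulator Trp53inp2 (0.91) and the sorting nexin Snx18 (0.33) rose. With TPM 7 of the 18 rose and 1 fell, since Vmp1 lost its call there.

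Upstream, in 32 genes of mTORC1, AMPK and amino acid sensing, 4 rose and 4 fell (12.5% each, against 21.4% and 22.3% of all tested genes). The Ragulator subunits Lamtor1 (-0.50) and Lamtor2 (-0.58), which anchor mTORC1 to the lysosome, and the AMPK subunit Prkab2 (-0.65) fell. Rragb (0.71), a Rag GTPase, Tbc1d7 (0.37), a subunit of the TSC complex, and Fnip2 (0.36), a partner of folliculin, rose. Rragb lost its call in DESeq2 and without knockdown replicate 1, and Tbc1d7 in DESeq2, with robust fitting off and without control replicate 1 or knockdown replicate 2. There were 8 falls without control replicate 1, 7 rises with library size, 1 rise in DESeq2, and 2 rises with robust fitting off or with either knockdown library left out.

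Downstream, in 17 genes of autophagosome-lysosome fusion, 8 fell and 2 rose (47.1% and 11.8%, against 22.3% and 21.4% of all tested genes). The median was -0.24. Plekhm1, an adaptor between RAB7, LC3 and the tether, fell from 108 and 109 CPM to 66.8 and 76.6 CPM (-0.60, SE 0.08, edgeR adjusted p = 1.30e-04). Tmem175, a lysosomal ion channel, fell by 0.60 on the log2 scale and Vps18 by 0.44. Vps18, Vps11 and Vps16 encode subunits of the same HOPS tether, and Vps11 (0.55) and Vps16 (0.22) rose, the latter not in DESeq2 or without either knockdown library. Falls in this list numbered 5 when knockdown replicate 1 was left out, 4 when knockdown replicate 2 was, and 5 with TPM. In 21 genes of organelle receptors and mitophagy, 8 fell and 3 rose (38.1% and 14.3%). That balance turned with the scaling, since with library size 4 fell and 8 rose and with TPM 2 fell and 7 rose. Of all tested genes, 16.6% fell and 29.6% rose with library size, and 13.6% fell and 31.8% rose with TPM. Bnip3 (-0.41), a mitochondrial receptor induced by hypoxia, Phb2 (-0.37) and the ferritin receptor Ncoa4 (-0.36) fell, and Nipsnap2 (0.58) and the mitophagy kinase Pink1 (0.44) rose. Ncoa4 lost its call with TPM, and Pink1 in DESeq2 and without control replicate 2 or knockdown replicate 2. Leaving out either knockdown library left 4 falls in this list.

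**Figure D4:**
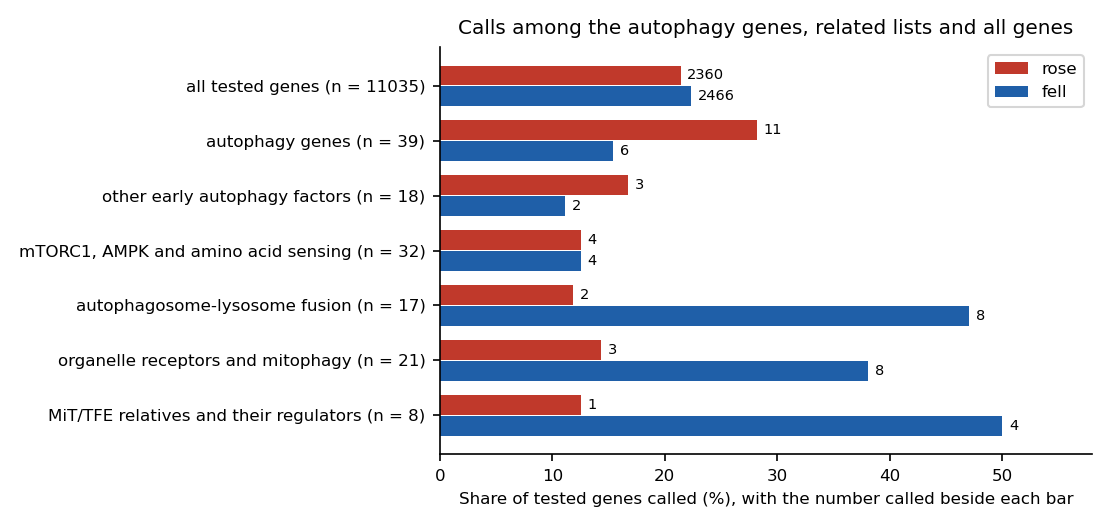
Share of tested genes that rose (red) and fell (blue) in percent (x axis) among all tested genes, the 39 autophagy genes and 5 lists of related genes, with the number of genes beside each bar. The autophagy genes have more rises (11) than falls (6), and the fusion list more falls (8) than rises (2).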

How the data were processed

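RNA of 4 libraries of RAW264.7 cells was sequenced as single-end reads of 50 bases after poly(A)-primed, template-switched and amplified cDNA synthesis, per the labels' protocols. Such libraries do not mark strand and carry no molecular identifiers, so errors cover counting and library spread, PCR included. The submitters' processing notes name mm9 as the genome build and list the tools RSEM 1.2.12, HISAT2 2.0.4 and Bowtie2 2.2.5 without saying what each did. The authors deposited estimated counts (expected counts, per the file headers and values not whole for 12.5% of genes), FPKM and TPM per library. The deposited FPKM values are fragments per gene length and depth, and the deposited TPM values have the same sum in every library, within rounding.

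Counts were rounded and tested with edgeR 4.0.16 (R 4.3.3): genes were kept by filterByExpr (at least 10 counts, 15 in total), TMM scaling with factors between 0.966 and 1.04, and robust quasi-likelihood fitting on the group, with Benjamini-Hochberg adjustment. Standard errors are the log2 fold change over the root of F. Alternatives were DESeq2 1.42.0, limma 3.58.1 on log2(FPKM + 0.1), log2(TPM + 0.1) and log2(TPM + 1), scaling by library size, no filter, a mean of at least 5 CPM, robust fitting off, a replicate block and each library left out. A test against a 1.5-fold change was run for counts. Replicates differed by more than sampling noise, with a chi-square per degree of freedom of 11.5 for the control pair and 4.15 for the knockdown pair. The fits were also run on simulated data with few changed genes, balanced in direction, and the same spread for every gene. In these libraries 43.7% of genes were called, so that simulation does not bear on the choice of scaling.

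The 39 genes and the related lists were chosen with earlier results of these data known. Named in full are genes called without overlap and with a log2 fold change of at least 0.4 in size (9 genes), and Ulk1, Becn1, Atg5, Atg7, Map1lc3b, Sqstm1, Tfeb and Tfe3. From each related list at most 3 called genes a direction are named, by size, with at least 5 CPM in the higher group. Ppp3ca, Wdr45b, Kri1, Cntd1, Mrnip and Gskip, and the details of other members, were added after their values were seen. The reference is of another build than mm9. Exon overlaps come from gene coordinates of GENCODE M21 on GRCm38, which may differ from the annotation on which the reads were counted. Printed positions belong to the RefSeq sequences on GRCm38.p6.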

Additional observations from a re-analysis of the deposited data

How the results depend on the processing

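Of the 17 called autophagy genes, 10 stayed called, in the same direction, in every one of the 13 alternative fits that tested them: Atg2a, Atg4b, Atg4d, Atg9a, Gabarapl1, Rb1cc1, Sqstm1, Tfe3, Tfeb and Wipi1. With a mean of at least 5 CPM, Wipi1, Optn and Atg10 were not tested. The other 7 lost their call in at least 1 fit, and 0 of the 17 changed sign. Of the 22 genes not called, 8 were called in some fit and 8 changed sign in some fit. Over all genes, falls numbered 1498 and 1505 with TPM (pseudocount 0.1 and 1), and a test against a 1.5-fold change gave 415 rises and 537 falls. For the 39 genes, 18 rose with library size as scaling and with TPM at either pseudocount, and 2 rose and 3 fell in the test against a 1.5-fold change. Their median log2 fold change was 0.244 with library size, 0.238 with FPKM, and 0.294 and 0.266 with TPM, all shifts shared by the median of all genes. In the related lists, rises numbered 7 in DESeq2, 24 with library size, 22 with FPKM and 24 with TPM at either pseudocount, and falls 17 with FPKM and 13 with TPM at either pseudocount.

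When a library was left out, rises over all genes numbered 1503 to 2543 and falls 1592 to 2781, and the 39 genes had 7 to 12 rises and 4 to 7 falls with a median between 0.102 and 0.183. The related lists then had 8 to 14 rises and 17 to 28 falls. These fits rest on 3 libraries, and the lone library of a group is assumed to vary like the pair of the other.

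Signs turned for these genes, which were not called in the fits named. Log2 fold changes with library size, FPKM, TPM + 0.1 and TPM + 1 were 0.0069, 0.0161, 0.0686 and 0.0572 for Ulk1. They were 0.0371, 0.0433, 0.0983 and 0.0962 for Atg7, 0.0815, 0.0463, 0.1023 and 0.0865 for Atg10, 0.0587, 0.032, 0.0869 and 0.0778 for Tecpr1, and 0.0507, 0.1636, 0.22 and 0.2022 for Mettl4. Map1lc3a reached 0.0174 with library size, 0.0529 with TPM + 0.1 and 0.0507 with TPM + 1. With a library left out, values ran from -0.1926 to 0.0082 for Ulk1, -0.0866 to 0.2562 for Atg4c, -0.0561 to 0.0295 for Atg10, -0.0109 to 0.1746 for Atg101, -0.0365 to 0.0821 for Gabarapl2, -0.1542 to 0.0715 for Tecpr1 and -0.1078 to 0.0036 for Mettl4. The cause of these changes in scaled values was not tested beyond the shift of all genes.

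With the replicate block (the replicate number as a second term), 12 of the 39 genes rose and 6 fell, and 2548 and 2568 genes did so overall. Atg4a was the added rise (0.27, edgeR adjusted p = 0.0397), and 0 calls among the 39 were lost. The labels do not say that equal numbers share a culture or day. The difference between replicates 1 and 2 correlated across 11035 genes with r = 0.146 between the groups, from only 2 pairs.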
